A study of Mus musculus with 4 samples.

Results

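The 10 genes described here belong to the redox response controlled by the transcription factor NRF2: Nfe2l2, which encodes NRF2 itself, and Gclc, Gclm, Slc7a11, Gsr, Txnrd1, Srxn1, Prdx1, Nqo1 and Hmox1, which are known targets of it. They were taken by gene symbol from the annotation of the array, where 15 of its 38784 probes carry 1 of these symbols. All 15 probes, and so all 10 genes, had values on all 4 arrays, which 8676 of the 14654 named genes on the array had. The cells were RIF-1, from a fibrosarcoma that radiation had caused in a mouse, and their RNA was compared on 2-colour arrays after knockdown of Bre1a or Bre1b by RNA interference. Bre1a is the product of Rnf20 and Bre1b that of Rnf40, which pair as the E3 ubiquitin ligase of histone H2B. Bre1a knockdown was set against a mock knockdown aimed at GFP on 1 array and against cells without knockdown on 1 array, and so was Bre1b knockdown. Cy5 marked the knockdown RNA and Cy3 the control RNA on all 4 arrays, so there was no dye swap. The labels name no interfering sequence, clone, dose or time after knockdown, and do not say whether the RNAs came from separate cultures, so the p-values cover the spread among these arrays alone, and it may be technical. Both knockdowns were set against the same kinds of control, and their values stand side by side below.

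In unstressed cells NRF2 is held by its adaptor KEAP1 and passed to a CUL3 ubiquitin ligase for degradation. Electrophiles and oxidants modify KEAP1, NRF2 then accumulates, pairs with a small MAF protein and binds antioxidant response elements near genes for glutathione synthesis, thioredoxin reduction, quinone reduction and haem breakdown. The cystine carrier Slc7a11 and Hmox1 also answer to other factors, ATF4 for Slc7a11 among them. In tumour cells this set of genes is known for its part in resistance to oxidants and to radiation.

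The promoters shown are those of the 5 members with the lowest values in mock cells against cells without knockdown, a comparison described below. Each window runs 5′ to 3′ on the gene's strand, from 250 bases before to 50 after a transcription start, taken from RefSeq on GRCm38.p6. Capitals mark matches, on either strand, to the core of the antioxidant response element, TGACNNNGC, or, in Slc7a11, to the C/EBP-ATF response element, TGATGNAA, to which ATF4 binds. The windows are chr3:50443564-50443863 (minus strand) for Slc7a11, chr10:82858956-82859255 (plus strand) for 1 of 3 starts of Txnrd1, chr2:152105274-152105573 (plus strand) for Srxn1, chr8:107403156-107403455 (minus strand) for Nqo1 and chr3:122245307-122245606 (plus strand) for Gclm.
Slc7a11: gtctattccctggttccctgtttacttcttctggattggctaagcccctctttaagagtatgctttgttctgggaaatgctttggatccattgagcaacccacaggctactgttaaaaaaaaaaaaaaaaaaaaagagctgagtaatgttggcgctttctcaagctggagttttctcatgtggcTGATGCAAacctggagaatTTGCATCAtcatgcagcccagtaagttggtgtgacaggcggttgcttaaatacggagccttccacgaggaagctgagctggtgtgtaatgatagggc
Txnrd1: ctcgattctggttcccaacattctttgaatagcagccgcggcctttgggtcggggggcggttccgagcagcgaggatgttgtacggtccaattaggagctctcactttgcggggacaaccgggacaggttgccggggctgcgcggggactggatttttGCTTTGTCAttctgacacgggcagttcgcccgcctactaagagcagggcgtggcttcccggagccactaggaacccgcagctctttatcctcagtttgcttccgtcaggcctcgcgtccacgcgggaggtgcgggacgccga
Srxn1: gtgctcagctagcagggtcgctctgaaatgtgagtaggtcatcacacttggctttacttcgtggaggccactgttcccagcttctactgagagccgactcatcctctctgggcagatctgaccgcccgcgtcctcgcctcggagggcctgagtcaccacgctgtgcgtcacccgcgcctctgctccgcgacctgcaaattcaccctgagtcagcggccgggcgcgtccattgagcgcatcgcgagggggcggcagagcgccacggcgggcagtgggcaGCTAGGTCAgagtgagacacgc
Nqo1: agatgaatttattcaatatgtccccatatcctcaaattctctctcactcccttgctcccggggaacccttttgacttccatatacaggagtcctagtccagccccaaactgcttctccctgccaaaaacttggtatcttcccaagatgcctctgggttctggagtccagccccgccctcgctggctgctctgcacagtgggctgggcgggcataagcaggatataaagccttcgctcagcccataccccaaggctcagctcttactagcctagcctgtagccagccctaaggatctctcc
Gclm: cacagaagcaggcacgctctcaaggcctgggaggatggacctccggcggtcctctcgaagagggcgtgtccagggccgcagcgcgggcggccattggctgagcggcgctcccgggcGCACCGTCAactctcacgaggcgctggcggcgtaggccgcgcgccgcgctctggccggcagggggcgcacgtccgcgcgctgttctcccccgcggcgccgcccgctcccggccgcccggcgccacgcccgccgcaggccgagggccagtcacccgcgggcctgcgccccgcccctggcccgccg

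Slc7a11 holds a pair of C/EBP-ATF matches in opposite orientation, at bases 185 to 192 and 204 to 211 of its window, and no match to TGACNNNGC. Txnrd1 has a TGACNNNGC match at bases 159 to 167, Srxn1 at 279 to 287 and Gclm at 117 to 125, each on the minus strand of the window. The windows at the other starts of Txnrd1, not shown, hold no such match. Srxn1 also has AP-1 matches (TGANTCA, not in capitals) at bases 149 to 155 and 206 to 212, which do not overlap its TGACNNNGC match. Windows were held for 7 members, 9 in all, of which 5 contain TGACNNNGC, against 12.4% of 32851 windows of this length. TGATGNAA stands in 1 of the 9, Slc7a11, against 3.97% of all windows, and TGANTCA in 2 of the 9, Srxn1 and Prdx1, against 7.81%. The AP-1 match of Prdx1 at bases 120 to 126 lies inside its TGACNNNGC match. Nqo1 has no match to TGACNNNGC or TGATGNAA in its window, and Gclc, Gsr and Hmox1 had no window. A match describes letters only and shows no binding.

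The arrays had values for 51.2% to 57.4% of their spots, with array medians from -0.033 to 0.014 in log2. Both targeted genes had low ratios on the arrays labelled with their knockdown: Rnf20 had -1.35 against mock and -1.60 against no knockdown on the Bre1a arrays, and Rnf40 had -1.23 and -1.49 on the Bre1b arrays. Of 10 fibroblast markers 9 had values on all 4 arrays, against 1 of 12 leukocyte, 3 of 10 epithelial and 1 of 10 endothelial markers. A ratio gives no level, so these counts say only which spots gave a value. Among the fibroblast markers S100a4 stood on each array at the value that repeats most often there, so nothing is read from it. Values below are log2 ratios of knockdown over control, averaged over a gene's probes, and means are given ± SD over 2 arrays (n = 2), which includes the difference between the controls. The limma fit takes that difference out and leaves 1 residual degree of freedom, and a call is an adjusted p under 0.05. Without the term for the control, none of the 10 genes passed for either knockdown, although 4 for Bre1a and 3 for Bre1b had an unadjusted limma p under 0.05, all higher. Over all 8676 genes 2078 for Bre1a and 3424 for Bre1b were under 0.05 in that fit, in either direction. The number of arrays limits the precision.

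By the mean over both controls Gclm, Hmox1, Txnrd1, Gsr and Gclc were higher on the Bre1a arrays, at 123% to 190% of control. On the Bre1b arrays Hmox1, Txnrd1, Gclm, Gclc, Srxn1 and Nqo1 were higher by that mean, at 118% to 191% of control. There Srxn1 and Nqo1 read 0.59 and 0.45 against mock but 0.03 and 0.02 against no knockdown. Nfe2l2, the gene of NRF2 itself, passed for neither knockdown. The limma test called 5 of the 10 members higher and 0 lower for Bre1a, while over all 8676 genes it called 21.1% higher and 19.9% lower. These were 1828 and 1723 genes, against 1307 higher and 1870 lower with arrays centred on their medians and 539 and 1065 with arrays also scaled. With that scaling 4 of the 5 members still passed for Bre1a, while Gclc did not (limma adjusted p = 0.0701). For Bre1b it called 6 of 10 higher and 0 lower, against 32.3% and 28.2% of all genes. With arrays scaled to 1 spread 2 of the 6, Hmox1 and Gclc, still passed for Bre1b, while Gclm, Txnrd1, Srxn1 and Nqo1 did not (limma adjusted p = 0.0516, 0.0515, 0.138 and 0.2), and over all genes 898 were higher and 1017 lower, against 2800 and 2444 without scaling. Without scaling, no unadjusted limma p under 0.05 belonged to a member below its controls in either comparison. For Bre1a there was 1 such member with probes at the most repeated value left out, and 2 with 1 probe per gene. The median of the 10 members was 0.23 for Bre1a, against 0.03 over all genes, and 0.37 for Bre1b, against 0.02. At least 1.5-fold higher on both arrays were 3 members for Bre1a (Gclm, Hmox1 and Gsr), beside 1.44% of all genes, and 1 for Bre1b (Hmox1), beside 4% of all genes. Above 0 on all 4 arrays were 4 members, Gclc, Gclm, Txnrd1 and Hmox1, beside 24% of all genes. Since Cy5 always marked the knockdown RNA, dye bias and knockdown cannot be told apart in these values. Markers of the cells moved too: of 9 measured fibroblast markers 1 was called higher and 5 lower for Bre1a, with a median of -0.60, and 0 higher and 3 lower for Bre1b, with a median of -0.18. Of 3 epithelial markers Krt8 (-1.25 ± 1.11) and Krt18 (-1.21 ± 0.03) were called lower for Bre1a, and Krt8 (-0.71 ± 1.28) and Epcam (-0.39 ± 0.53) for Bre1b. These Bre1b values depended on the control: Krt8 read -1.62 against mock but 0.20 against no knockdown, and Epcam -0.01 and -0.76. The 1 endothelial marker, Egfl7, was called lower for Bre1a (-0.60 ± 0.37) and for Bre1b (-0.48 ± 0.44), and the 1 leukocyte marker, Cd14, higher for Bre1b (0.28 ± 0.20). For all these markers, their part in the result was not tested.

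**Figure D1:**
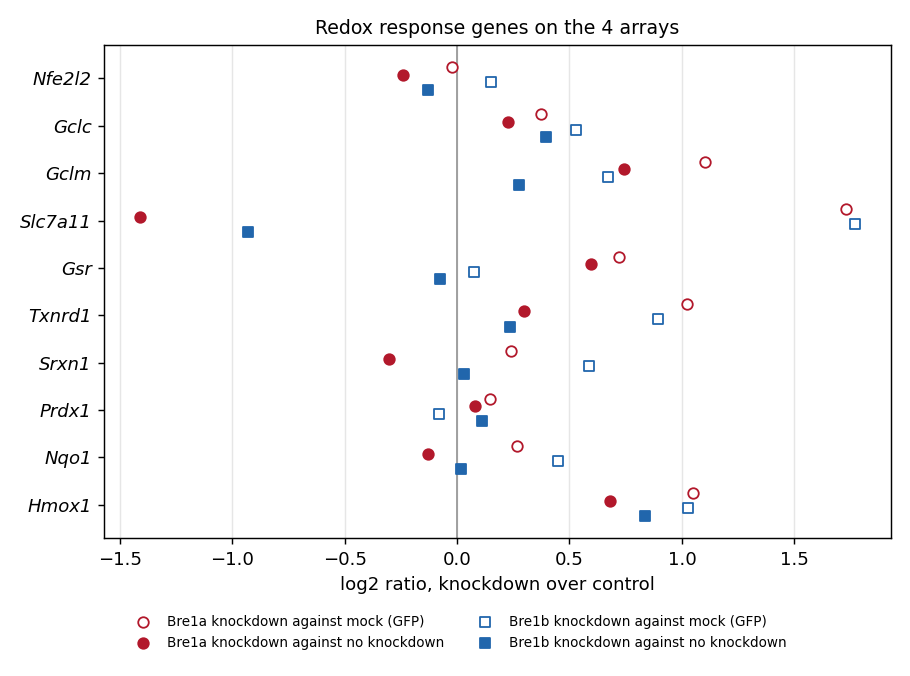
Log2 ratio of knockdown over control (horizontal axis) for each of the 10 genes (vertical axis), 1 point per array: circles for Bre1a and squares for Bre1b, open against mock (GFP) and filled against no knockdown. Gclc, Gclm, Txnrd1 and Hmox1 lie above 0 on all 4 arrays, and for Slc7a11 both open points lie above 1.7 while both filled points lie below -0.9.

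The messenger of the regulator moved little. Nfe2l2 had -0.02 against mock and -0.24 against no knockdown on the Bre1a arrays, and 0.15 and -0.13 on the Bre1b arrays. Its 2 probes differed by at most 0.10 on any array. The means, -0.13 ± 0.15 for Bre1a and 0.01 ± 0.20 for Bre1b, did not pass (n = 2, limma adjusted p = 0.0932 and 0.854).

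Gclc and Gclm encode the catalytic and the modifier subunit of glutamate-cysteine ligase, the rate-limiting enzyme of glutathione synthesis. Gclm had 1.10 against mock and 0.74 against no knockdown on the Bre1a arrays, and 0.67 and 0.28 on the Bre1b arrays. All 4 values were positive, and both Bre1a values were above both Bre1b values. Its mean was 0.92 ± 0.26 for Bre1a, 190% of control (n = 2, limma adjusted p = 0.0212), and 0.47 ± 0.28 for Bre1b, 139% of control (n = 2, limma adjusted p = 0.0108). Gclc had 0.37 and 0.23 on the Bre1a arrays and 0.53 and 0.40 on the Bre1b arrays, in the same order of controls, so here the Bre1b values were the higher ones. Its mean was 0.30 ± 0.10 for Bre1a, 123% of control (n = 2, limma adjusted p = 0.0284), and 0.46 ± 0.10 for Bre1b, 138% of control (n = 2, limma adjusted p = 0.0108).

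Gsr encodes glutathione reductase, which returns oxidised glutathione to its reduced form with NADPH. Gsr had 0.72 against mock and 0.59 against no knockdown on the Bre1a arrays, and 0.08 and -0.07 on the Bre1b arrays. It was thus well above 0 on both Bre1a arrays and on either side of 0 on the Bre1b arrays. The mean was 0.66 ± 0.09 for Bre1a, 158% of control (n = 2, limma adjusted p = 0.0212), and 0.00 ± 0.11 for Bre1b (n = 2, limma adjusted p = 0.973).

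Slc7a11 encodes the carrier subunit of the cystine-glutamate exchanger, which supplies cysteine for glutathione. It had 1.73 on the Bre1a array and 1.77 on the Bre1b array against mock, and -1.41 on the Bre1a array and -0.93 on the Bre1b array against no knockdown. The sign of its ratio therefore followed the control and not the knockdown. The means, 0.16 ± 2.22 for Bre1a and 0.42 ± 1.91 for Bre1b, did not pass (n = 2, limma adjusted p = 0.295 and 0.0573), and that for Bre1b had an adjusted p of 0.0305 with arrays centred on their medians but 0.817, at 0.094, with arrays also scaled. Both of its probes gave the same sign on 3 arrays. On the Bre1b array against no knockdown probe 8741 read 0.16 and probe 26099 read -2.02. On the Bre1a array against no knockdown probe 8741 read -0.92, a value shared by 60 spots and 1 log2 unit below the value that repeats most often on that array, and probe 26099 read -1.90.

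In the thioredoxin branch Txnrd1 encodes the cytosolic thioredoxin reductase, Srxn1 the sulfiredoxin that repairs overoxidised peroxiredoxins, and Prdx1 a peroxiredoxin. Txnrd1 had 1.02 against mock and 0.30 against no knockdown on the Bre1a arrays, and 0.90 and 0.24 on the Bre1b arrays. Its values were positive on every array and larger against mock in both knockdowns. The means were 0.66 ± 0.51 for Bre1a, 158% of control (n = 2, limma adjusted p = 0.0217), and 0.57 ± 0.47 for Bre1b, 148% of control (n = 2, limma adjusted p = 0.0101).

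Srxn1 had 0.24 against mock and -0.30 against no knockdown on the Bre1a arrays, and 0.59 and 0.03 on the Bre1b arrays. The mean of its 3 probes was -0.03 ± 0.38 for Bre1a (n = 2, limma adjusted p = 0.504) and 0.31 ± 0.39 for Bre1b, 124% of control (n = 2, limma adjusted p = 0.0159). The single spot of Prdx1 stood within 0.002 of the value that repeats most often on each array: 0.15 and 0.08 on the Bre1a arrays, -0.08 and 0.11 on the Bre1b arrays. That value is shared by 702 to 843 spots per array, so Prdx1 may hold no measured difference, and nothing is read from it.

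Nqo1 encodes a quinone reductase and Hmox1 the inducible haem oxygenase. Hmox1 had 1.05 against mock and 0.68 against no knockdown on the Bre1a arrays, and 1.03 and 0.84 on the Bre1b arrays. All 4 values were above 0.6, and the ranges of the 2 knockdowns overlapped. The means were 0.86 ± 0.26 for Bre1a, 182% of control (n = 2, limma adjusted p = 0.0219), and 0.93 ± 0.14 for Bre1b, 191% of control (n = 2, limma adjusted p = 0.00944). Nqo1 had 0.27 and -0.13 on the Bre1a arrays, and 0.45 and 0.02 on the Bre1b arrays, in the same order of controls. Its 2 probes differed by at most 0.14. The mean was 0.07 ± 0.28 for Bre1a (n = 2, limma adjusted p = 0.226) and 0.23 ± 0.30 for Bre1b, 118% of control (n = 2, limma adjusted p = 0.0249).

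Set directly against each other, the knockdowns differed in Gsr and Gclm, higher with Bre1a knockdown, and in Srxn1, lower with Bre1a knockdown. A dye bias that is equal on all arrays cancels in this difference, but the labels file the images of the Bre1a and the Bre1b arrays under different months, so that an effect of that grouping and of the knockdown cannot be told apart. The limma test called 2 of the 10 members higher and 1 lower, beside 11.7% and 13.2% of all genes. Gsr differed by 0.65 on the arrays against mock and 0.67 on those against no knockdown, with a mean of 0.66 ± 0.02 (n = 2 differences, limma adjusted p = 0.0372). Gclm differed by 0.43 and 0.47, with a mean of 0.45 ± 0.03 (n = 2 differences, limma adjusted p = 0.0406). Srxn1 differed by -0.35 and -0.34, with a mean of -0.34 ± 0.01 (n = 2 differences, limma adjusted p = 0.0467). For the other 7 the difference did not pass, with adjusted p from 0.115 for Gclc to 0.517 for Hmox1. The 3 calls were lost, with nearly the same differences, where every named probe was used (adjusted p = 0.0526, 0.0549 and 0.0609 for Gsr, Gclm and Srxn1). With arrays scaled to 1 spread they were lost too (limma adjusted p = 0.139, 0.139 and 0.198), and so they were without the control term and in tests of probes. Srxn1 alone was also lost with arrays centred on their medians (limma adjusted p = 0.0554) and with 1 probe per gene (0.0562).

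**Figure D2:**
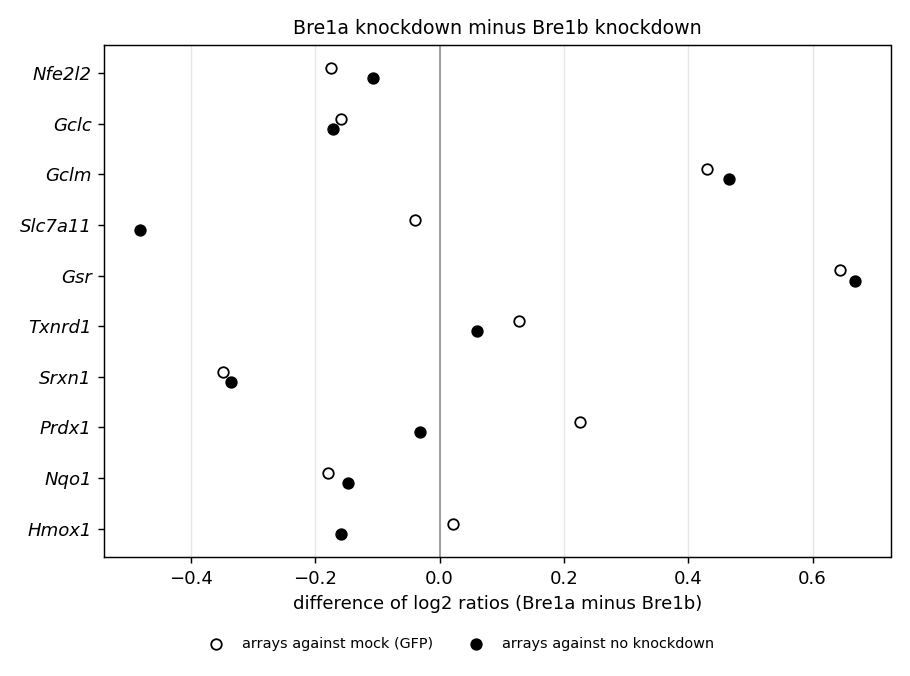
Difference of log2 ratios, Bre1a minus Bre1b knockdown (horizontal axis), for each of the 10 genes (vertical axis); open circles are the arrays against mock (GFP) and filled circles those against no knockdown. Gsr and Gclm lie above 0.4 and Srxn1 near -0.34 with either control, while the points of Prdx1 and Hmox1 fall on both sides of 0.

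Slc7a11, Txnrd1 and Srxn1 were lower in mock knockdown cells than in cells without knockdown, and Slc7a11 differed there by more than any member did with either knockdown. For 6 of the other 7 members the values were also negative, but did not pass the test. The difference was read, for each knockdown, as the value against no knockdown minus the value against mock, and it assumes that the knockdown RNA was the same on both arrays of a pair, which the labels do not state. A dye bias that is equal on both arrays cancels here too. The arrays against mock all carry replicate number 2 in their titles and those against no knockdown number 1. An effect of the control and one of the replicate therefore cannot be told apart. Below 0 in both estimates were 9 of the 10 members, beside 42.2% of all genes, and above 0 in both were 0, beside 37.8%. The limma test called 3 lower and 0 higher, beside 6.12% and 7.26% of all genes, while at an unadjusted limma p under 0.05 there were 7 lower and 0 higher. Over all 8676 genes 3854 had an unadjusted limma p under 0.05, in either direction. The median of the members was -0.33, against -0.01 over all genes. At least 1.5-fold lower in both estimates were 2 members, Slc7a11 and Txnrd1, beside 3.67% of all genes. Of the 9 fibroblast markers limma called 0 between the controls, with 4 at an unadjusted p under 0.05, all higher in mock cells, while of 3 measured epithelial markers the keratin Krt8 was higher (1.69 ± 0.18) and Epcam lower (-0.80 ± 0.07) in mock cells, and the 1 endothelial marker, Egfl7, was lower (-0.57 ± 0.08); their part in the result was not tested.

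Slc7a11 was lower in mock cells by far the most, with -3.14 from the Bre1a arrays and -2.70 from the Bre1b arrays. The mean of -2.92 ± 0.31 left 13.3% of the ratio in cells without knockdown (n = 2 differences, limma adjusted p = 0.0475). By probe the differences were -3.17 and -1.96 for probe 8741, and -3.11 and -3.43 for probe 26099. Txnrd1 had -0.73 and -0.66, with a mean of -0.69 ± 0.05, or 61.9% (n = 2 differences, limma adjusted p = 0.0475). Srxn1 had -0.54 and -0.56, with a mean of -0.55 ± 0.01, or 68.4% (n = 2 differences, limma adjusted p = 0.0475). The values of both pairs of arrays were thus alike, although this agreement is the single residual that the 4 arrays leave, and it also sets the SD of the difference between the knockdowns.

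Nqo1 (-0.41 ± 0.02), Gclm (-0.38 ± 0.03), Hmox1 (-0.28 ± 0.13), Nfe2l2 (-0.25 ± 0.05), Gclc (-0.14 ± 0.01) and Gsr (-0.14 ± 0.02) did not pass (n = 2 differences, limma adjusted p from 0.05 to 0.156). Prdx1, at the repeated value on every array, read 0.06 ± 0.18. With probes at the repeated value left out, and Prdx1 with them, 5 of 9 members passed, Nqo1 and Gclm being added (limma adjusted p = 0.0464 and 0.0489). With 1 probe per gene no gene passed and the members' lowest adjusted p was 0.0524, although 7 members had an unadjusted limma p under 0.05, all lower. So had 3706 of all 8676 genes, in either direction. By these ratios Slc7a11 lay, with either knockdown, above mock cells and below cells without knockdown.

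**Figure D3:**
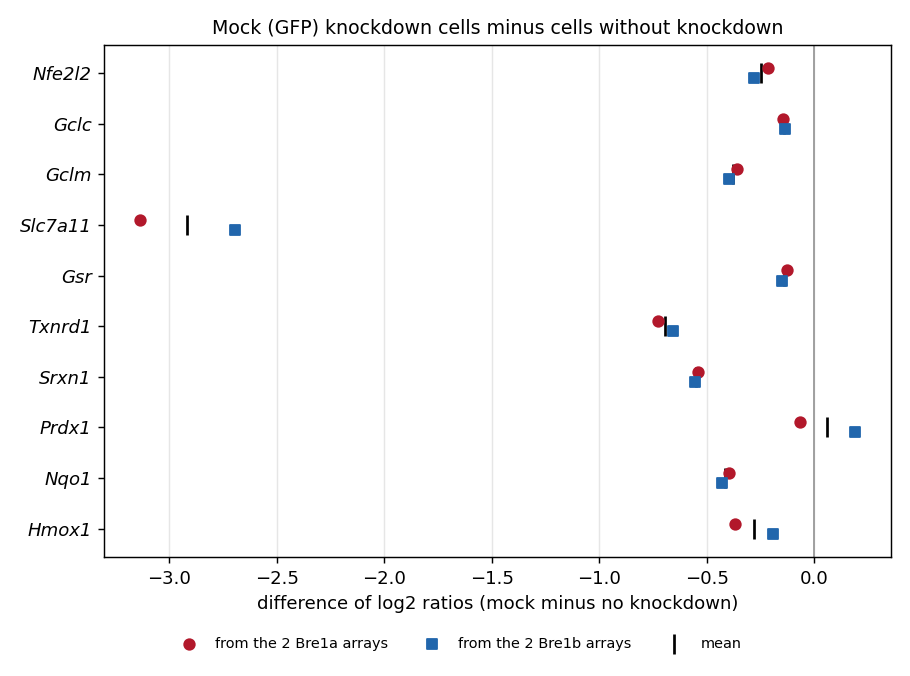
Difference of log2 ratios between mock (GFP) knockdown cells and cells without knockdown (horizontal axis) for the 10 genes (vertical axis), from the Bre1a arrays (circles) and the Bre1b arrays (squares), with a bar at the mean. Slc7a11 stands near -3, Txnrd1 and Srxn1 between -0.73 and -0.54, and of the 10 genes only Prdx1 has a point above 0.

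Of 92 further pathway genes in 7 lists by role, 74 had values on all 4 arrays, and between the controls 6 were called higher, 1 lower and 67 neither way in mock cells, beside 7.26% higher and 6.12% lower of all genes. Their median was 0.06, with 37 above 0 and 18 below 0 in both estimates. Of the 74 genes 4 stood at the repeated value on every array, namely Akr1a1, Gpx1, Fth1 and Ftl1. They count as called neither way here, but like Prdx1 they may hold no measured difference, and nothing is read from them. The 1 gene called lower was Cul3 (-0.44 ± 0.02, limma adjusted p = 0.0482), the scaffold of the ligase that marks NRF2. Among 10 enzymes that act on quinones, carbonyls, aldehydes and epoxides 4 were called higher in mock cells, namely the aldehyde dehydrogenase Aldh3a1 (1.26 ± 0.04), the aldehyde oxidase Aox1 (1.22 ± 0.18), the aldo-keto reductase Akr1b10 (0.51 ± 0.01) and the epoxide hydrolase Ephx1 (0.50 ± 0.02), with limma adjusted p = 0.0475 each. Of 6 genes of NADPH supply 2 were called higher, transketolase (Tkt, 0.58 ± 0.00, limma adjusted p = 0.0475) and the isocitrate dehydrogenase Idh2 (0.41 ± 0.01, limma adjusted p = 0.0494). None was called among 15 genes of glutathione synthesis and use, 14 of thioredoxin and peroxiredoxin, 11 of haem and iron and 4 of superoxide and peroxide removal, with Gpx1, Fth1 and Ftl1 counted among them. Of these 44 genes 9 were higher and 8 lower in mock cells at an unadjusted limma p under 0.05, beside 3854 of all 8676 genes in either direction.

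Glutathione transferases, which join glutathione to electrophiles, include several known NRF2 targets. Of 15 measured genes 7 were called higher and 0 lower in mock cells, beside 7.26% and 6.12% of all genes. The median of the 15 was 0.68, and Gsta4 (1.07 ± 0.13) and Gstm1 (0.93 ± 0.06) were among those called, both with limma adjusted p = 0.0475. At an unadjusted limma p under 0.05 there were 9 higher and 0 lower, beside 3854 of all 8676 genes in either direction. Gstp1, 1 of the 15, stood at the repeated value on every array, and nothing is read from it. Probes of the Gstm genes may not separate their similar sequences. With Bre1a knockdown 4 of the 15 transferases were called higher and 3 lower (median 0.07), beside 21.1% and 19.9% of all genes. With Bre1b knockdown 2 were called higher and 10 lower (median -0.58), beside 32.3% and 28.2%. In a list of 15 measured genes of the ATF4 amino acid response 1 was called higher and 1 lower in mock cells. Over all genes 7.26% were called higher and 6.12% lower, so these counts do not set the list apart. The genes called were Cth, the enzyme that makes cysteine from cystathionine (1.85 ± 0.15), and the transcription factor Atf3 (-1.82 ± 0.05), both with limma adjusted p = 0.0475. Atf4 itself read -0.19 ± 0.04 (limma adjusted p = 0.113).

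**Figure D4:**
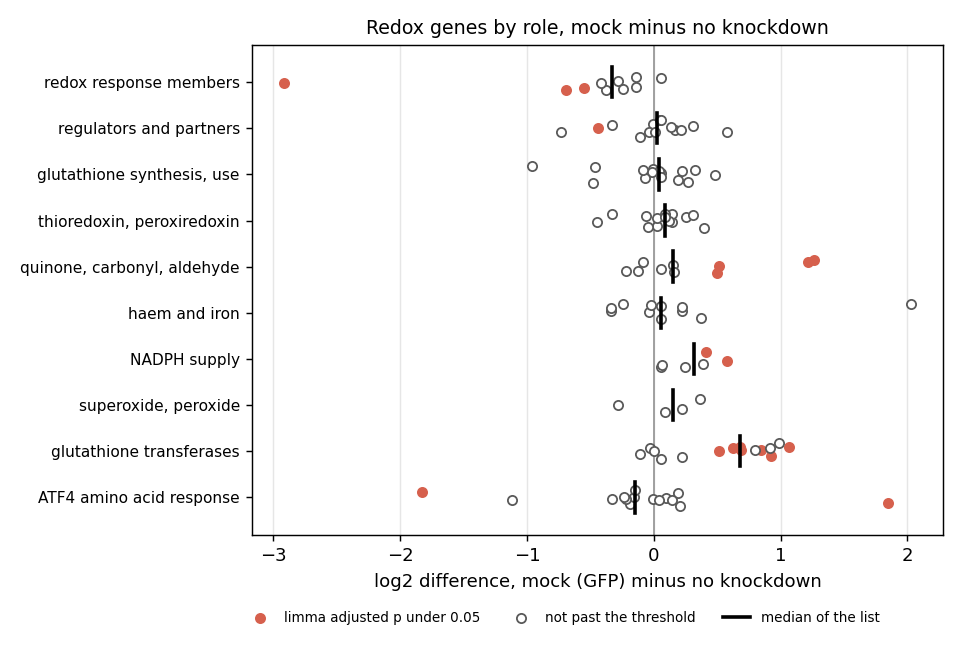
Log2 difference, mock (GFP) minus no knockdown (horizontal axis), for the measured genes of 10 lists by role (vertical axis); filled points had a limma adjusted p under 0.05, open points did not, and the black bar is the list's median. The 10 redox response members have a median of -0.33, while the glutathione transferases have a median of 0.68.

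For the knockdowns the 74 further pathway genes gave 14 called higher and 11 lower with Bre1a, and 15 higher and 22 lower with Bre1b, with medians of 0.00 and -0.01. Over all genes 21.1% were called higher and 19.9% lower with Bre1a, and 32.3% and 28.2% with Bre1b, so these counts do not set the pathway apart, and the genes below are given singly. With Bre1a knockdown the superoxide dismutase Sod1 (1.07 ± 0.08), the transferrin receptor Tfrc (0.84 ± 0.26) and the haem transporter Abcb6 (0.62 ± 0.25) rose (limma adjusted p = 0.0212, 0.0212 and 0.0217). The extracellular dismutase Sod3 (-0.86 ± 0.16), the thioredoxin inhibitor Txnip (-0.87 ± 0.25) and the mitochondrial peroxiredoxin Prdx3 (-0.71 ± 0.05) fell (limma adjusted p = 0.0212, 0.0223 and 0.0223). With Bre1b knockdown the iron exporter Slc40a1 (-3.11 ± 0.63), Aox1 (-1.99 ± 0.95) and the peroxidase Gpx7 (-1.47 ± 0.63) fell (limma adjusted p = 0.0271, 0.00944 and 0.0181). Tfrc (1.12 ± 0.22), Slc3a2, the heavy chain that pairs with Slc7a11 (0.64 ± 0.05), and Cul3 (0.60 ± 0.32) rose (limma adjusted p = 0.00944, 0.0109 and 0.00958). Sod3 rose there (0.67 ± 0.23, limma adjusted p = 0.00981), and its difference between the knockdowns, -1.53 ± 0.07, passed (limma adjusted p = 0.0372). Of 14 measured regulators and partners 3 were called higher and 3 lower for Bre1a, and 5 and 5 for Bre1b. The NRF2 adaptor Keap1 read -0.16 ± 0.11 for Bre1a and -0.29 ± 0.13 for Bre1b (limma adjusted p = 0.0625 and 0.0179). The autophagy receptor Sqstm1, an NRF2 target that binds KEAP1, rose with both (0.46 ± 0.25 and 0.49 ± 0.22, limma adjusted p = 0.0231 and 0.0105). Cul3 was also called higher for Bre1a (0.22 ± 0.30, limma adjusted p = 0.0399). Maff fell with Bre1a and rose with Bre1b (-0.60 ± 0.03 and 0.23 ± 0.09, limma adjusted p = 0.0237 and 0.0467). Mafk rose and Mafg fell with Bre1b (0.545 ± 0.119 and -0.323 ± 0.025, limma adjusted p = 0.0166 and 0.0181). For Bre1a neither passed (limma adjusted p = 0.0756 and 0.0534). Nfe2l1 fell with both knockdowns (-0.35 ± 0.22 and -0.23 ± 0.22, limma adjusted p = 0.0254 and 0.024), and Trim21 fell with Bre1b (-0.846 ± 0.495, limma adjusted p = 0.0109).

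The genes with the most similar values over the 4 arrays were found by Euclidean distance in log2 among the 8676 genes, as a description over 4 arrays only. Nearest to Gclm were Rtn4, Nabp2 and Dicer1 (distances from 0.19 to 0.27), nearest to Hmox1 were Maob, Ccng1 and Cryab (0.21 to 0.24) and nearest to Txnrd1 were Ccnj, Ube2k and Ddx39a (0.11 to 0.17). Slc7a11 had no gene as close, with Fam167a, Krt16 and Foxq1 at 0.90 to 1.16. The 3 genes at distance 0.00 from Prdx1, Anxa2, Arf1 and Cox4i1, also stood at the repeated value on all arrays.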

How the data were processed

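The deposited table holds 1 value per probe and array, read here as a log2 ratio of Cy5 over Cy3, since values are signed and centred near 0 and the labels give the dyes. Not given in the sources used here: image software, background correction and normalization, so that brightness-dependent dye bias may remain. All columns were mapped to a sample. Of 38784 probes 22204 had 1 gene symbol in GEO's platform annotation, 0 had several and 16580 had none; all 22204 were found by gene ID in a GRCm38.p6 gene table, used for names only, and 0 changed. Means per symbol of the 12958 named probes with all 4 values gave 8676 genes, which were tested two-sided with lmFit and eBayes of limma 3.58.1 (R 4.3.3) and adjusted by Benjamini-Hochberg over those genes. The model had 1 coefficient for each knockdown and 1 for the control, which is also the replicate number of the titles. Residual degrees of freedom were 1, prior ones 1.57. Deviations of same-numbered arrays from their group means correlated across genes (r = 0.602). The code was tested on simulated data. The 10 members and all gene lists were chosen with earlier results of these data known, so no p over a list is given. Of the lists, named genes were taken from the called ones of largest mean, at most 4 per list and comparison. Keap1, Maff, Mafk, Mafg, Nfe2l1, Trim21, Atf4, the markers and the genes at the repeated value were named after their values were seen. Leukocyte, epithelial, endothelial and fibroblast markers served for the check of the cell line. Promoter windows are RefSeq's, on GRCm38.p6. Alternatives covered the control term, scaling, repeated-value spots, probe choice, probe-level tests and each array left out.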

Additional observations from a re-analysis of the deposited data

Results flagged for a closer look

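The effects of the 2 knockdowns differed by the test of the difference in 3 of the 10 members. With Bre1a knockdown 2 were higher and 1 lower, beside 11.7% and 13.2% of all genes. No gene was called without the control term, with arrays scaled to 1 spread or with every named probe. Gsr had a difference of 0.656 (Bre1a minus Bre1b, log2), with 0.658 for Bre1a and 0.002 for Bre1b. Gclm had a difference of 0.448, with 0.922 for Bre1a and 0.474 for Bre1b. Srxn1 had a difference of -0.342, with -0.032 for Bre1a and 0.310 for Bre1b. Knockdown and the grouping of the images by month cannot be told apart in these differences.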

How the results depend on the processing

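The calls depend on the control term. With no replicate block, that is without the control term, 0 members were called higher for Bre1a and 0 for Bre1b, and 0 higher and 0 lower between the knockdowns (limma; unadjusted p under 0.05 for 4, 3, 1 and 0 members), while the values stayed the same: Rnf20 at -1.48 on the Bre1a arrays (adjusted p = 0.0577) and Rnf40 at -1.36 on the Bre1b arrays (adjusted p = 0.052). Over all genes that fit called 2 for Bre1a, 162 for Bre1b and 0 between the knockdowns, against 3551, 5244 and 2161 with it. Unadjusted limma p was under 0.05 there for 2078, 3424 and 1286 of all 8676 genes, in either direction. The difference between the controls is that term itself and has no such value. At least 1.5-fold on both arrays were 3 members higher for Bre1a and 1 for Bre1b. With arrays scaled to 1 spread 4 members were called higher for Bre1a, 2 higher for Bre1b, 0 higher and 0 lower between the knockdowns and 0 lower between the controls (unadjusted p under 0.05 for 5, 4, 2, 0 and 4). Over all genes 1604, 1915, 0 and 0 were called there for Bre1a, Bre1b, their difference and the controls, and unadjusted limma p was under 0.05 for 3817, 4203, 2351 and 1697. Centring on medians turned the split for Bre1a over all genes to 1307 higher and 1870 lower, and scaling to 539 and 1065, from 1828 and 1723; between the knockdowns centring left 0 members lower (unadjusted, 1). With 1 probe per gene 0 were lower between the knockdowns and 0 between the controls, with every named probe or with probes tested in place of genes 0 were higher and 0 lower between the knockdowns and 0 lower between the controls (unadjusted p under 0.05 for 1 to 7 members across these, beside 3541 to 3966 of all genes and 7115 to 7863 of 18620 probes), and with probes at the repeated value left out 5 of 9 were lower between the controls. Tests of probes called 6675 of 18620 for Bre1a and 10553 for Bre1b. These values changed sign: Slc7a11 for Bre1a (-0.061, scaled), Gsr for Bre1b (-0.018 centred, -0.035 scaled), Prdx1 for Bre1b (-0.004, centred), Nfe2l2 for Bre1b (-0.009 centred, -0.040 scaled, -0.038 with 1 probe), Hmox1 between the knockdowns (0.155, scaled) and, from a called value of 0.41 (adjusted p = 0.0349), Rnf40 for Bre1a (-0.136 with every named probe, adjusted p = 0.716). Leaving out each array in turn, in the fit without the control term and with the lone array assumed to vary like the others, left 0 members called higher for Bre1a, 0 to 1 for Bre1b (Hmox1, without either Bre1a array) and 0 between the knockdowns; without any 1 array the difference between the controls comes from 1 pair and has no test. Ranges over these fits were -1.60 to -1.35 for Rnf20 on the Bre1a arrays and -1.49 to -1.23 for Rnf40 on the Bre1b arrays. For Bre1a they were -1.41 to 1.73 for Slc7a11, -0.13 to 0.27 for Nqo1 and -0.30 to 0.24 for Srxn1; for Bre1b -0.074 to 0.077 for Gsr, -0.93 to 1.77 for Slc7a11, -0.079 to 0.11 for Prdx1 and -0.13 to 0.15 for Nfe2l2; and between the knockdowns -0.25 to 0.12 for Hmox1, -1.83 to 1.31 for Slc7a11, -0.38 to 0.05 for Nqo1 and -0.27 to 0.46 for Txnrd1, and for the members called there 0.25 to 0.646 for Gclm, 0.581 to 0.732 for Gsr and -0.62 to -0.064 for Srxn1. The cause of these changes was not tested, beyond the samples or genes each setting removes. Of 294 single-gene values in settings that keep all arrays, 228 kept direction and side of the threshold, counting those called in neither setting. Of the others 54 lost a call, 3 gained a call and 9 changed direction. Brightness over background was not analysed here, so no dim spot could be judged.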
